A study of Mus musculus with 12 samples.

Results

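The microRNA loci described here are the gene symbols of the Mir and Mirlet series, host-gene symbols left out, that reached at least 10 FPKM in at least 1 group of poly(A) RNA libraries from mouse oocytes. FPKM are fragment counts divided by the length of the transcript and by the size of the library. The rule was met by 97 of the 614 microRNA symbols in the table, which holds 23235 gene symbols in all. The remaining 517 stayed under 10 FPKM in every group, and 511 of them were listed at 0 in every group. The members were therefore chosen on the same FPKM values that are compared below, and no test was run on them.

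A microRNA is cut from a long primary transcript that RNA polymerase II makes and that is capped and polyadenylated like an mRNA. The nuclease Drosha with its partner Dgcr8 crops the hairpin in the nucleus, and Dicer trims it in the cytoplasm to the mature strand that guides an Argonaute protein to its targets through the seed, the bases from position 2 to 8. A mature microRNA has no poly(A) tail, so fragments at these loci in an oligo-dT library come from longer RNA that overlaps the hairpin. In mouse oocytes microRNAs are known to repress their targets only weakly. MTR4, encoded by Skiv2l2 in this table, is an RNA helicase that unwinds RNA in the nucleus and threads it into the exosome, which degrades it.

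The study compared Mtr4-null with wild-type (WT) oocytes at postnatal day 14 and day 21. The 4 groups were Mtr4-null day 14, WT day 14, Mtr4-null day 21 and WT day 21, each labelled as 3 libraries of 10 pooled oocytes from female mouse ovaries. Libraries were made by Smart-seq2, which copies polyadenylated RNA in full length without keeping the strand. How the gene was removed, what else the WT animals carried and which animals gave the oocytes are not given in the sources used here. The table holds 1 FPKM mean per gene and group, so no SD or p-value over libraries can be given.

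Skiv2l2 was at 1.57 FPKM in Mtr4-null and 27.6 FPKM in WT oocytes at day 14, 17.6-fold lower, and at 3.86 and 26.3 FPKM at day 21, 6.80-fold lower. All 12 oocyte markers looked up passed 10 FPKM in some group and summed to 20000 and 20040 FPKM at day 14 and to 12100 and 14960 FPKM at day 21. The 10 granulosa markers summed to 21.5 FPKM in Mtr4-null and 24.4 FPKM in WT oocytes at day 14, and to 13.4 and 36.5 FPKM at day 21, where Cyp19a1, the aromatase, made up 1.48 and 25.3 FPKM. The 8 markers of theca, stroma, endothelium and blood summed to 11.2 and 13.8 FPKM at day 14 and to 3.04 and 21.5 FPKM at day 21, most of it from Pecam1. Hba-a1 was at 0 in every group. The part of these lists in the results below was not tested.

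The 3 loci with the highest levels that belong to Mtr4-null oocytes alone were Mir484, Mir1894 and Mir1956. Their hairpins are shown because the leading values of the whole set rest on stretches this short; capitals mark the mature strands. All sequences here are RefSeq records on GRCm38.p6, 5′ to 3′, and 89 of the 97 loci had a mature sequence there.
Mir484 hairpin (chromosome 16, plus strand): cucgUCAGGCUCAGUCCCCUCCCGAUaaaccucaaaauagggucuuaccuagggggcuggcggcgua
Mir1894 hairpin (chromosome 17, plus strand): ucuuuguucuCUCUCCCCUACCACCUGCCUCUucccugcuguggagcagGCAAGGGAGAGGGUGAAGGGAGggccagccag
Mir1956 hairpin (chromosome 3, plus strand): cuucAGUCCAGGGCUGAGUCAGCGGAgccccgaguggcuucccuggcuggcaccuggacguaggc
The hairpins are 67, 81 and 65 nt long. Their GC content was 58.2%, 61.7% and 67.7%, against a median of 50% over the 87 members with a hairpin record and 49.1% over 414 other microRNA symbols.

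The mature strands of the loci that the results turn on are given next, with the seed in capitals, so that loci of a shared seed can be seen beside each other.
miR-484: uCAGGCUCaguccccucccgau
miR-1894-5p: cUCUCCCCuaccaccugccucu
miR-1894-3p: gCAAGGGAgagggugaagggag
miR-1956: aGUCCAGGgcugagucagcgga
miR-707: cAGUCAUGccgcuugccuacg
miR-1905: cACCAGUCccaccacgcgguag
miR-5135: aGGUCUAGguggcaagggcguccu
miR-3064-5p: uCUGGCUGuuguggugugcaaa
miR-3068-5p: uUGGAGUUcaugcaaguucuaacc
miR-24-3p: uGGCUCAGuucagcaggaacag
miR-15a-5p: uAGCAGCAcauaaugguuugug
miR-16-5p: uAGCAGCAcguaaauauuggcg
let-7a-5p: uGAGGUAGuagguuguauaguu
let-7b-5p: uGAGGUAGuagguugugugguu
let-7c-5p: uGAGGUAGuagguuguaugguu
let-7d-5p: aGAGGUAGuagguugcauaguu
let-7f-5p: uGAGGUAGuagauuguauaguu
miR-98-5p: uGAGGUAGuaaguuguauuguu
The leading loci shared no seed with each other. Over the 139 mature sequences there were 124 distinct seeds. The let-7 seed was the most frequent, carried by 6 loci. Next came the seed UAUACAA, on the 3′ strand of 5 of these same loci, and the seed CUCAAAC of Mir290, Mir292 and Mir293. Mir15a and Mir16-1 share a seed, as do Mir24-1 and Mir24-2.

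The annotated loci are 59 to 131 nt long, with a median of 84 nt, against 83 nt for the other microRNA symbols. At such lengths the level of a locus depends on very few fragments. When each FPKM was multiplied by the number of positions a fragment can take in a locus of that length, under the default fragment length distribution of Cufflinks (mean 200 nt, SD 80 nt) and a shortest fragment of 48 nt, the same values recurred at unrelated loci. These recurring values are read here as the worth of 1 fragment in each library of a group. They gave 3 libraries in each group except Mtr4-null day 21. There they gave 2, of almost the same worth, where the labels list 3 and the design text speaks of duplicates.

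With these steps, 119 of the 163 values of up to 15 fragments in the members, 73%, were whole numbers of fragments within 0.005%, as were 106 of 123 values, 86.2%, in other RNA loci under 200 nt. Whole sums of up to 10 fragments fill 1.05% to 1.11% of the range of values at that tolerance in the groups of 3 libraries and 0.115% in Mtr4-null day 21. Some pairs of loci of equal length had the same FPKM: Mir144 and Mir1843b, both of 66 nt, stood at 187 FPKM in Mtr4-null day 14, and Mir697 and Mir698, both of 109 nt, at 46.4 FPKM in Mtr4-null day 21. Each of these 4 values was 1 fragment. With values near 0 also counted as not whole, 40 of 59 values in exons of a gene with a row of its own were not whole. There fragments can be shared out between 2 annotations. In introns of such a gene the count was 8 of 43, and at loci without a host 3 of 36. None of the 28 values at exonic loci whose host had no row was fractional.

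The worth of 1 fragment differed between groups and lengths. For a locus of 67 nt, such as Mir484, it was 166 to 173 FPKM in Mtr4-null day 14, 125 to 145 FPKM in WT day 14, 598 to 599 FPKM in Mtr4-null day 21 and 114 to 173 FPKM in WT day 21. For a locus of 109 nt it was 12.9 to 13.4, 9.72 to 11.2, 46.4 and 8.81 to 13.4 FPKM in the same order of groups. In the group mean a fragment was thus worth 5.27 times as much in the Mtr4-null day 21 libraries as in the deepest WT day 21 library, and 3.51 times as much in the FPKM of the library itself, before averaging over 2 or 3 libraries. If FPKM were scaled to mapped fragments, the Mtr4-null day 21 libraries had 28.5% of the depth of that library, the Mtr4-null day 14 libraries 65.7% to 68.4%, the WT day 14 libraries 78.4% to 90.6% and the other WT day 21 libraries 65.8% and 85.0%. Which recovered library is which labelled replicate is unknown. Totals per group rest on the 0.005% above. The split between the 2 Mtr4-null day 21 libraries, whose steps nearly coincide, was read within 0.15 fragments of a whole number, which could be done for 31 of 31 member values of 1 to 8 whole fragments and for 64 of 66 over all short loci, and is the less certain of the 2 readings.

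**Figure D1:**
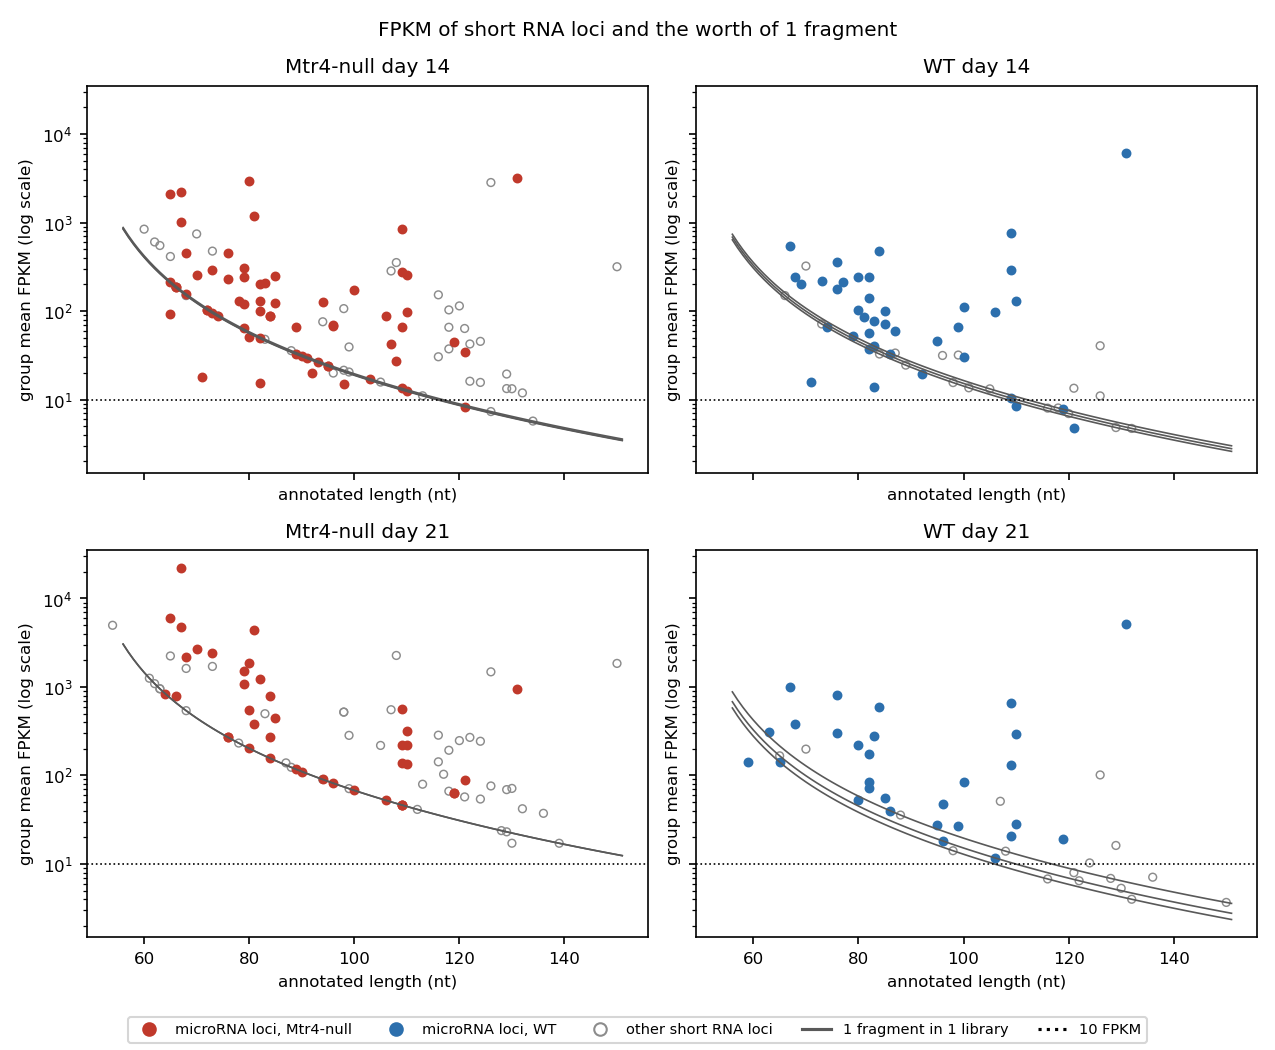
Group mean FPKM (log axis) against annotated length in nt for microRNA loci (filled; red Mtr4-null, blue WT) and other RNA loci of up to 150 nt (open) at 1 FPKM or more, with lines for the worth of 1 fragment in each recovered library. Many points lie on the lines, which are 5.27 times higher in Mtr4-null day 21 than for the deepest WT day 21 library, and at 109 nt 1 fragment is close to or above the dotted line of 10 FPKM in every group.

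The rule of 10 FPKM was accordingly met by almost any fragment. Of the 95 members with a known length, 37 had about 1 fragment or fewer in every group, and 61 had at most about 3. Only 34 had over 3 fragments in some group, and 9 had over 10. The members just inside the rule were Mir219-1 at 12.5 FPKM, Mir671 at 15.1 FPKM, Mir292 at 15.6 FPKM and Mirlet7d at 17.2 FPKM, all in Mtr4-null day 14 alone. The symbols just outside it were Mir1186 at 7.003 FPKM and Mir763 at 6.95 FPKM, both in WT day 14 alone, followed by Mir1843 at 0.0023 FPKM and Mir21 at 0.0013 FPKM. Between the members and the symbols at 0 there were therefore few loci. In the text below, fragments are given beside FPKM, as the sum over the libraries of a group, and intervals cover counting error only, since the reads carry no molecular identifiers. A pool of 10 oocytes does not show whether fewer oocytes carried an RNA or each carried less of it.

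At day 14 the log2 difference of FPKM + 1 was at least 1, that is 2-fold, in 52 members that were higher in Mtr4-null oocytes and in 18 that were lower, 53.6% and 18.6% of the 97. Over all 7462 symbols with at least 10 FPKM in any group, 9.26% were higher and 1.74% lower. At day 21 there were 34 members higher and 15 lower, 35.1% and 15.5%, against 19.4% higher and 29.5% lower over all such symbols. Nothing is read from these shares, since the rule used the same values. The median log2 difference of the members was 2.38 at day 14 and 0 at day 21, against 0.0068 and -0.41 over these 7462 symbols. Small nucleolar and Cajal body RNAs, which are short loci too, numbered 61 and were higher in 62.3% and lower in 4.92% at day 14, and higher in 75.4% and lower in 4.92% at day 21.

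At day 14, 65 members reached 10 FPKM in Mtr4-null and 38 in WT oocytes, and at day 21 the numbers were 42 in Mtr4-null and 30 in WT oocytes. They made up 3.56% and 1.95% of all FPKM at day 14 and 9.05% and 1.86% at day 21. Counted in fragments, at the unequal depths given above, the order was another. Without Mir3471-1, the members held 344 fragments in Mtr4-null day 14 and 215 in WT day 14, and 193 in each genotype at day 21, from 2 Mtr4-null and 3 WT libraries. With Mir3471-1 they held 873 and 1480 fragments at day 14 and 237 and 1216 at day 21. In 51 members 10 FPKM was reached in a Mtr4-null group and in no WT group, in 16 in a WT group and in no Mtr4-null group, and in 30 in both genotypes. The first 2 patterns make up 52.6% and 16.5% of the members, against 15% and 6.94% of the 7462 symbols at 10 FPKM and 68.9% and 4.92% of the 61 small nucleolar and Cajal body RNAs. The rule used these values, and nothing is read from the shares. A single group held 54 of the members, 30 of them Mtr4-null and 10 WT at day 14, and 11 Mtr4-null and 3 WT at day 21. Single-group counts over all symbols were not made, so nothing is read from these numbers either.

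**Figure D2:**
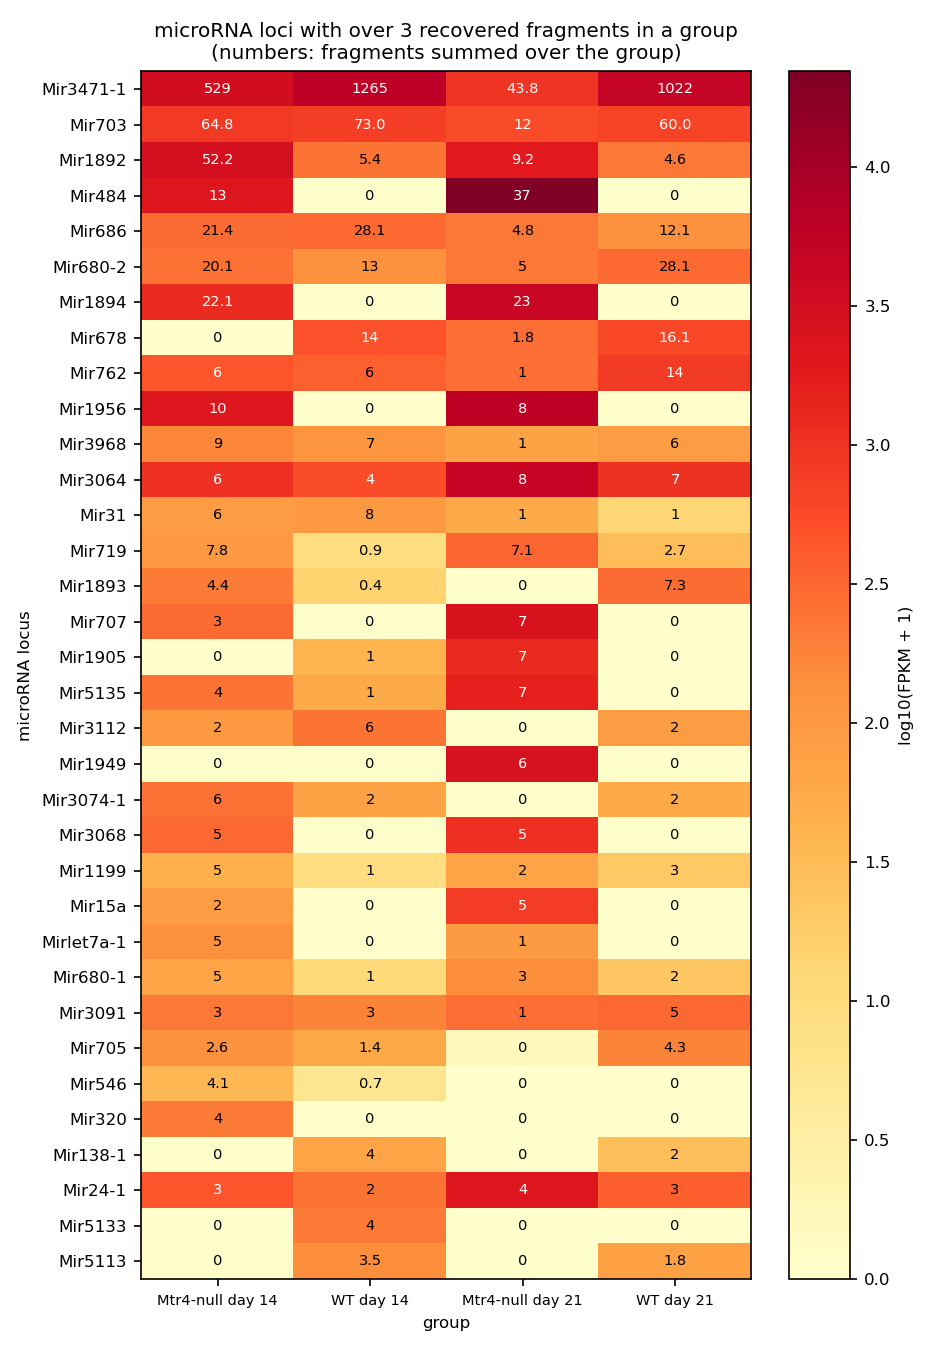
The 34 microRNA loci with over 3 fragments in some group, 1 row each, by group; colour gives log10(FPKM + 1) and the number in each cell the fragments summed over the libraries of the group. Mir484, Mir1894 and Mir1956 held 8 to 37 fragments in the Mtr4-null groups and 0 in both WT groups, while Mir3471-1 and Mir678 were lower in Mtr4-null than in WT oocytes at both ages.

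The group that carried most fragments in Mtr4-null oocytes and none in WT oocytes comprised Mir484, Mir1894 and Mir1956. Mir484 stood at 2190.2 FPKM in Mtr4-null and 0 in WT oocytes at day 14, and at 22143 FPKM, the highest level of any member, and 0 at day 21. At day 14 its 13 fragments were 6, 3 and 4 in the 3 Mtr4-null libraries from the deepest to the shallowest, with a counting interval of 6.92 to 22.2. At day 21 it held 37 fragments (26.1 to 51.0), of which about 18.5 were estimated to lie in the shallower Mtr4-null library. This estimate and that for Mir1894 below exceed the 8 fragments up to which splits were read. Neither was within 0.15 of a whole number. No WT library held a fragment of Mir484, so the Mtr4-null level is set against a limit, the worth of 3 WT fragments. That level was 5.04 times the limit at day 14 and 42.7 times at day 21. Such multiples, here and below, use the measured level without its counting error. The counting interval of 0 fragments reaches 3.69, so they are not lower bounds of the fold.

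Mir484 lies 359 bp upstream of the nearest protein-coding start, that of Marf1, on the opposite strand. Marf1, listed as 4921513D23Rik, is an oocyte RNA regulator needed for meiosis in female mice, and a longer transcript of it covers Mir484 in antisense, so without strand the fragments can belong to either RNA. Its own row was at 33.6 FPKM in Mtr4-null and 30.6 FPKM in WT oocytes at day 14, and at 32.2 and 22.0 FPKM at day 21. The next gene on the strand of Mir484, Nde1, a centrosome protein gene 3583 bp away, was at 9.28 and 8.36 FPKM at day 14 and at 9.75 and 10.8 FPKM at day 21. Neither gene differed 2-fold at either age, while Mir484 itself was listed at 0 in WT oocytes.

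Mir1894 stood at 1180.3 FPKM in Mtr4-null and 0 in WT oocytes at day 14, and at 4347 FPKM and 0 at day 21. These were about 22.1 fragments at day 14 and 23 at day 21, where about 11.8 were estimated to lie in the shallower of 2 libraries. The Mtr4-null level was 8.60 times the WT limit defined above at day 14 and 26.6 times at day 21. The locus lies in an intron of Ppp1r10, 693 bp after its start. Ppp1r10, which codes for the phosphatase subunit PNUTS, was at 27.2 FPKM in Mtr4-null and 16.8 FPKM in WT oocytes at day 14, and at 31.1 and 14.9 FPKM at day 21, a log2 difference of 1.01 at day 21.

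Mir1956 stood at 2109 FPKM in Mtr4-null and 0 in WT oocytes at day 14, and at 5974 FPKM and 0 at day 21. At day 14 its 10 fragments were 4, 2 and 4 in the Mtr4-null libraries, and at day 21 its 8 were read as 5 and 3. The Mtr4-null level was 3.89 times the limit of 3 WT fragments at day 14 and 9.24 times at day 21. The locus lies in an intron of Eif4e, 242 bp after its start. Eif4e, the cap-binding translation factor, was at 196 FPKM in Mtr4-null and 227 FPKM in WT oocytes at day 14, and at 120 and 231 FPKM at day 21, so the row of the host was the lower one in Mtr4-null oocytes at both ages.

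In all, 10 loci, 10.3% of the members, were above 10 FPKM in both Mtr4-null groups and at 0 in both WT groups. The other 7 were Mir707, Mir15a, Mir3068, Mir425, Mirlet7a-1, Mir1843b and Mir692-1, with fewer fragments. The same share over all symbols was not counted. The rule used these values, so nothing is read from the count. Mir707, in an exon of Akt1s1 70 bp after its start, held 3 fragments in Mtr4-null day 14 and 7, split 3 and 4, in Mtr4-null day 21. Its FPKM were 288 and 0 at day 14 and 2389.6 and 0 at day 21. The Mtr4-null level at day 21 was 8.09 times the limit of 3 WT fragments. Akt1s1, which codes for a subunit of the growth-control complex mTORC1, was at 16.1 FPKM in Mtr4-null and 9.34 FPKM in WT oocytes at day 14, and at 14.3 and 19.5 FPKM at day 21, on opposite sides of WT at the 2 ages.

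Mir3068, in an intron of the demethylase gene Alkbh1, held 5 fragments in each Mtr4-null group and none in WT oocytes, at 311 FPKM at day 14 and 1082 FPKM at day 21. Its fragments were 0, 1 and 4 at day 14 and 0 and 5 at day 21, so a single library gave most of them each time. Mir425 held 3 fragments in each Mtr4-null group, at 123 and 441 FPKM, both at or under the limit of 3. Mir692-1 held 1 fragment in each, at 13.4 and 46.4 FPKM. Mir1843b held 1 at day 14, and its 1.20 at day 21 was not whole; an annotated Cajal body RNA, Scarna3a, overlaps it, so its reads cannot be told from that RNA.

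A further set had fragments in Mtr4-null day 21 above all. Mir1905 stood at 1239.8 FPKM in Mtr4-null and 0 in WT oocytes at day 21, with 7 fragments split 3 and 4, while at day 14 it was at 0 in Mtr4-null and 37.1 FPKM, or 1 fragment, in WT oocytes. Mir5135 stood at 1515 FPKM in Mtr4-null and 0 in WT oocytes at day 21, with 7 fragments split 6 and 1. At day 14 it stood at 242 FPKM in Mtr4-null and 52.4 FPKM in WT oocytes, from 4 fragments and 1. Both levels were 8.09 times the limit of 3 WT fragments at day 21. Mir1949 held 6 fragments, 3 in each library, at 2668 FPKM in Mtr4-null day 21 and at 0 in every other group. Mir5135 lies 168 bp upstream of a start of Plekhg3, on the opposite strand, and Plekhg3 itself was at 5.75 FPKM in Mtr4-null and 24.5 FPKM in WT oocytes at day 21. Mir1905 lies in antisense to an exon of Mex3a, an RNA-binding protein gene at 1.53 and 0.566 FPKM at that age.

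Not every high level was of this kind. Mir3064 had the fourth highest level of all members at 4788 FPKM in Mtr4-null day 21, against 992 FPKM in WT day 21, a ratio of 4.82. Behind these levels stood 8 fragments, 4 and 4, in the Mtr4-null libraries (3.45 to 15.8) and 7, split 3, 1 and 3, in the WT libraries (2.81 to 14.4). At day 14 it stood at 1009.8 FPKM in Mtr4-null and 539 FPKM in WT oocytes, from 6 and 4 fragments. Its host Ddx5, the helicase that assists Drosha, was at 221 and 175 FPKM at day 14 and at 246 and 127 FPKM at day 21. Mir24-1 was alike, at 2159 FPKM in Mtr4-null and 379 FPKM in WT oocytes at day 21 from 4 and 3 fragments, all 4 of the Mtr4-null fragments in 1 library. The counting intervals of the fragment numbers overlapped widely between genotypes at both loci, but they are not intervals of the levels. At 67 nt, 1 fragment was worth 598 to 599 FPKM in Mtr4-null day 21 and 114 to 173 FPKM in WT day 21. Whether the levels differed beyond counting error was not tested.

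Mir1892 had the second highest level of all members in Mtr4-null day 14, after Mir3471-1, and was present in all groups. It stood at 2979 FPKM in Mtr4-null and 245 FPKM in WT oocytes at day 14, and at 1859 and 220 FPKM at day 21. These were worth 52.3 and 5.39 fragments at day 14 and 9.20 and 4.65 at day 21, with ratios of 12.1 and 8.46. The numbers were not whole, and the locus lies in an exon of Sptssa, listed as 1110002B05Rik, a subunit gene of the enzyme that starts sphingolipid synthesis. That row was at 85.9 FPKM in Mtr4-null and 55.0 FPKM in WT oocytes at day 14, and at 124 and 30.4 FPKM at day 21. Mir719, in an exon of the nuclear pore gene Nupl1, stood at 98.6 FPKM in Mtr4-null and 8.56 FPKM in WT oocytes at day 14, and at 319 and 28.4 FPKM at day 21. These were worth 7.83 and 0.851 fragments at day 14 and 7.14 and 2.72 at day 21.

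Among the loci that stood lower in Mtr4-null oocytes, Mir3471-1 and Mir678 held the most fragments. Mir3471-1, the most deeply covered member, stood at 3233 FPKM in Mtr4-null and 6178 FPKM in WT oocytes at day 14, and at 949 and 5181 FPKM at day 21. Its fragments numbered 529 and 1265 at day 14 (intervals 485 to 576 and 1196 to 1337) and 43.8 and 1022 at day 21 (32.0 to 59.1 and 960.3 to 1087). The ratio was 0.523 at day 14 and 0.183 at day 21. It lies 28868 bp from the nearest protein-coding start and in no annotated host, and how many other genomic copies share its sequence was not examined. Mir678 was listed near 0 in Mtr4-null and at 476 FPKM in WT oocytes at day 14. The 14 fragments in WT were split 9, 3 and 2, and the WT level was 3.51 times the worth of 3 Mtr4-null fragments. At day 21 it was at 274 and 587 FPKM, 1.75 and 16.1 fragments. It lies in an exon of the methyltransferase gene Prmt2, whose row was at 35.6 and 33.3 FPKM at day 14 and at 34.9 and 42.3 FPKM at day 21. Fragments there can be shared out between the 2 annotations. The Mtr4-null day 14 value of Mir678, 1.44e-09 FPKM, was not exactly 0 and was taken as 0 fragments. Its lower level at day 14 rests on that reading.

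Other loci stood higher in WT oocytes on fewer fragments. Mir1893, in an exon of the chromatin gene Epc1 210 bp after its start, was near 0 in Mtr4-null and at 282 FPKM in WT oocytes at day 21, worth 0 and 7.26 fragments. At day 14 it lay the other way, at 209 FPKM in Mtr4-null and 13.7 FPKM in WT oocytes, from 4.45 and 0.366 fragments. Mir705, in an exon of Rab11fip5, changed sides likewise, with 2.59 and 1.41 fragments at day 14 and 0.0031 and 4.27 at day 21. Mir3112, in an exon of the mRNA 3′ end processing gene Cstf2, stood at 99.3 FPKM in Mtr4-null and 242 FPKM in WT oocytes at day 14, from 2 and 6 fragments, and at 0 and 84.7 FPKM at day 21, from 0 and 2. Mir138-1 held 0 fragments in Mtr4-null and 4 in WT oocytes at day 14 and 0 and 2 at day 21. Mir5113, in an exon of Tnrc6b, which codes for a partner of Argonaute proteins, held about 0 and 3.51 at day 14 and 0 and 1.76 at day 21. None of these passed the limit of 3 fragments used below. At day 21 that limit was harder to pass in this direction, since 3 fragments of a locus such as Mir1893 were worth 499 FPKM in Mtr4-null and 144 FPKM in WT oocytes.

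Further large differences in log2(FPKM + 1) rested on at most 3 fragments. Mir32 stood at 257 FPKM and Mir300 at 120 FPKM in Mtr4-null day 14 alone, both from 2 fragments of 1 library. Mir153 stood at 205 FPKM in WT day 14 alone, from 2 fragments of 1 library, and Mir1839 at 220 FPKM there, from 3. Mir155 held 1 fragment in Mtr4-null day 14, at 216 FPKM, and 1 in WT day 21, at 142 FPKM. Mir5116 and Mir5046 stood at 314 and 140 FPKM in WT day 21 from 1.41 and 0.349 fragments. At this depth such levels cannot tell the genotypes apart.

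In all, 13 members reached 10 FPKM in all 4 groups, among them Mir1940, Mir703, Mir686, Mir680-1, Mir680-2, Mir762, Mir3091, Mir31 and Mir3968. Mir1940, which could not be given a length, stood at 840.1 FPKM in Mtr4-null and 26.3 FPKM in WT oocytes at day 14, and at 315 and 39.7 FPKM at day 21. Mir703 was the most even of the well covered ones, at 849 FPKM in Mtr4-null and 764 FPKM in WT oocytes at day 14 and at 557 and 652 FPKM at day 21, from 64.8 and 72.99 fragments and from 12 and 60.04. Mir762, in antisense to an exon of the chromatin remodeller gene Bcl7c, stood at 458 and 360 FPKM at day 14, from 6 fragments in each genotype. At day 21 it stood at 269 and 812 FPKM, from 1 fragment (0.0253 to 5.57) and 14 (7.65 to 23.5), a ratio of 0.331. Mir680-1 and Mir680-2 share their mature sequence, so their reads may be split between them. Mir3091, in an intron of the ribosomal protein gene Rps21, held 3 and 3 fragments at day 14 and 1 and 5 at day 21, and those 5 all lay in 1 WT library.

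With a limit of 3 fragments set for the lower genotype and over 3 asked of the higher, 6 members were at least 2-fold higher in Mtr4-null oocytes at day 14, namely Mir484, Mir1894, Mir1956, Mir1892, Mir719 and Mir3074-1. At day 21 there were 13, namely these except Mir3074-1, and Mir707, Mir1905, Mir5135, Mir1949, Mir15a, Mir3068, Mir3064 and Mir24-1. Lower were Mir678 at day 14, where its Mtr4-null value near 0 was taken as 0 fragments, and Mir3471-1 at day 21. Of the 95 members, 6.32% and 13.7% were thus higher at day 14 and day 21, against 23% and 27.9% of 61 other RNA loci under 200 nt with at least 10 FPKM in some group. Lower were 1.05% of the members at each age, against 0% of the other short loci. The members' share of higher loci was thus the smaller one at both ages, but the 2 sets were not matched in length. Both sets also met the minimum of 10 FPKM on these same values. The count is given as a description of these loci only. Both genotypes were at or under 3 fragments in 68 of 95 members at day 14 and in 72 at day 21, and for these no fold is given. This requirement leaves counting error aside and was added after the values were seen.

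The let-7 loci, which carry the seed GAGGUAG, showed how little most families held. Mirlet7a-1 held 5 fragments in Mtr4-null day 14, 0, 3 and 2 by library, and 1 in Mtr4-null day 21, at 128 and 90.1 FPKM, and none in WT oocytes. Mirlet7f-1 and Mirlet7d, of the same cluster on chromosome 13, held 1 fragment each, in Mtr4-null day 21 and in Mtr4-null day 14. Mirlet7c-2 held 1 fragment in Mtr4-null day 14, while its cluster neighbour Mirlet7b held 3 in WT day 14, all in 1 library. Mir98 held 2 fragments in Mtr4-null day 14, both in 1 library, inside the ubiquitin ligase gene Huwe1. The 6 loci of this seed were thus found in 3 of the 4 groups, and none of them in more than 2.

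Other clusters held as few. Mir17, Mir18 and Mir19b-1 lie in Mir17hg, the host RNA of a growth-promoting cluster, and held 2 and 3 fragments in Mtr4-null day 14 and 2 in WT day 14. The row of Mir17hg was under 1 FPKM in every group, at 0.734 in Mtr4-null and 0.300 in WT oocytes at day 14 and at 0.463 and 0.190 at day 21. Mir290, Mir292 and Mir293, a cluster of early embryos and embryonic stem cells, held about 1 fragment or less each. Mir23b held 1 fragment in WT day 14 beside Mir24-1, and Mir376c, in a cluster with Mir300, held 1.06 there. Mir3074-1 lies opposite Mir24-1 within Fancc, so without strand the fragments of this stretch can belong to either. It held 6 and 2 fragments at day 14 and 0 and 2 at day 21, in Mtr4-null and WT oocytes.

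The row of a host gene on the same strand could be set beside 53 of the members, for 49 host genes. At day 14, 4 of these hosts, 8.16%, were at least 2-fold higher in Mtr4-null oocytes and 1, 2.04%, was lower. Over the 7462 symbols with at least 10 FPKM in some group the shares were 9.26% and 1.74%. Only 27 of the 49 hosts reached 10 FPKM, so these shares are over unlike sets. The locus and its host were both higher in 3 pairs, Mir15a and Mir16-1 in Dleu2 and Mir3069 in Snhg10. In 22 pairs the locus was higher while its host was under 2-fold either way. At day 21, 11 hosts, 22.4%, were higher and 8, 16.3%, lower, against 19.4% and 29.5% of those 7462 symbols, again an unlike set. Locus and host were both higher in 6 pairs (Mir15a, Mir1892, Mir1894, Mir1902, Mir5100 and Mir698), and in 10 the locus was higher while the host was under 2-fold. Locus and host lay on opposite sides in Mir1839 at day 14 and in Mir1843b, Mir1931 and Mir592 at day 21. Among hosts of 10 FPKM or more, several carried loci of 1 or 2 fragments: Mir1306 in an exon of Dgcr8, Mir3061 in an exon of the phosphatase gene Ppp2ca and Mir1982 in an intron of the antizyme gene Oaz1 held about 1 each in Mtr4-null day 14 alone, and Mir744 in an intron of the kinase gene Map2k4 held 2 in WT day 14 alone. Across the 53 pairs Pearson's r of the log2 differences was 0.108 and Spearman's rho 0.171 at day 14, and 0.15 and 0.181 at day 21. These are descriptions across loci of the same libraries, some of which share a host, and mostly of 1 to 3 fragments.

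**Figure D3:**
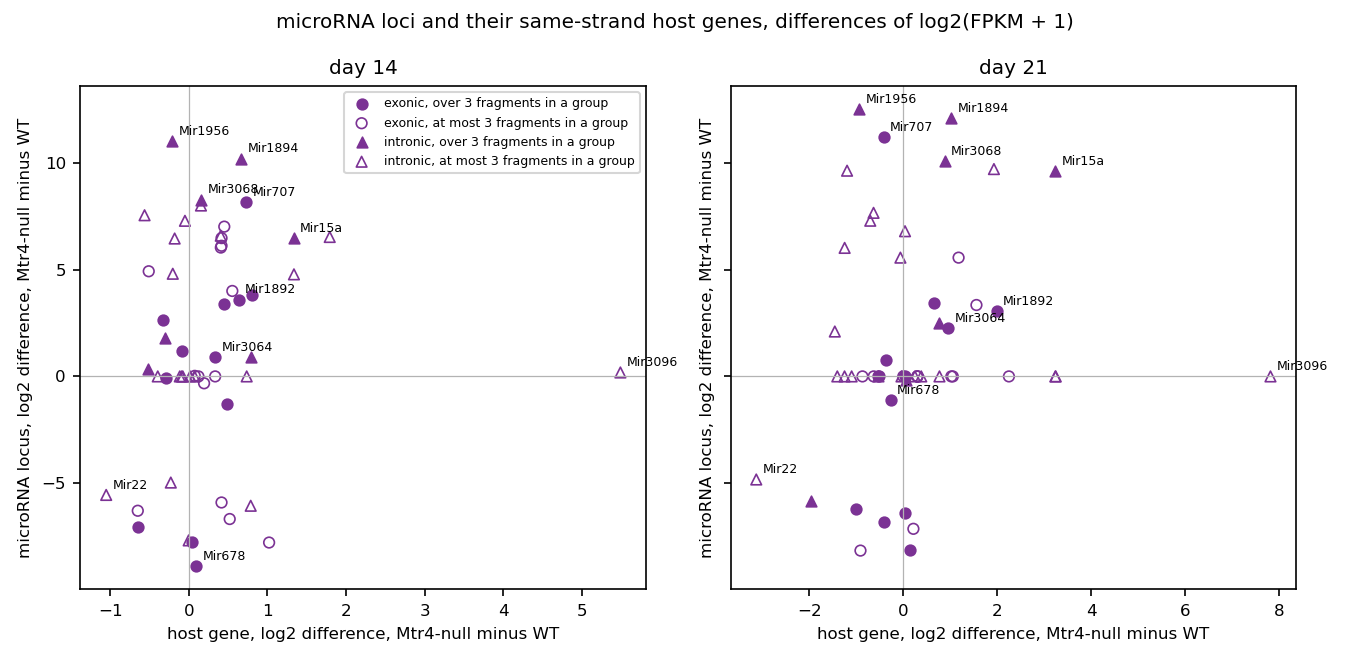
Log2 difference of FPKM + 1, Mtr4-null minus WT, of 53 microRNA loci (vertical) against that of the host gene on the same strand (horizontal) at day 14 and day 21; circles are exonic and triangles intronic loci, filled where a group held over 3 fragments. Mir1956, Mir1894, Mir707 and Mir3068 lie high while their hosts lie near 0 or within about 1 log2 unit, Mir15a and Dleu2 are both high, and Mir3096 is near 0 while its host AI506816 lies far to the right.

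Mir15a was the clearest pair on the side where both were high. It stood at 87.6 FPKM in Mtr4-null and 0 in WT oocytes at day 14, and at 781 FPKM and 0 at day 21, from 2 fragments at day 14 and 5, split 2 and 3, at day 21. Dleu2, the long non-coding RNA that hosts it, was at 1.91 FPKM in Mtr4-null and 0.152 FPKM in WT oocytes at day 14, and at 12.8 and 0.465 FPKM at day 21. Mir16-1, in the same host and with the same seed, held 1 fragment in Mtr4-null day 14 and 0 elsewhere. Snhg10 was at 26.3 and 6.88 FPKM at day 14 and at 81.4 and 7.72 FPKM at day 21, but Mir3069 in it held under 1 fragment and overlaps another annotated Cajal body RNA, Scarna13.

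For other hosts that stood far apart between genotypes, the locus held too few fragments for a comparison. AI506816, a long non-coding RNA, was at 462 FPKM in Mtr4-null and 9.31 FPKM in WT oocytes at day 14, and at 2710 and 11.1 FPKM at day 21. Mir3096, in an intron of it, was at 17.98 and 15.7 FPKM at day 14 and at 0 in both genotypes at day 21. That was 0.157 and 0.172 fragments at day 14, where 3 fragments are worth 352 and 295 FPKM, so a difference at this locus was not detectable at this depth. The opposite direction was seen for Tlcd2, whose row covers Mir22, at 1977 and 4097 FPKM at day 14 and at 483 and 4236 FPKM at day 21. Mir22 was listed near 0 in both Mtr4-null groups and at 46.0 FPKM in WT day 14 and 27.5 FPKM in WT day 21, worth 2.38 and 1.37 fragments.

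Position was not itself part of the rule. A locus that overlaps a longer RNA can take its fragments, however, so the shares below are not independent of the rule. The splits by fragments and by group rest on the same values. Of the 95 members that could be placed on GRCm38, 73 lay inside a gene on the same strand, 76.8%, against 339 of the 510 other microRNA symbols, 66.5%. In 42 members, 44.2%, the locus touched an exon of that gene, against 79 others, 15.5%. Within 1000 bp of a protein-coding start lay 17 members, 17.9%, against 39 others, 7.65%. Among the 34 members with over 3 fragments the count was 11, or 32.4%, and among the 61 with at most 3 it was 6, or 9.84%. The median distance to the nearest protein-coding start was 4994 bp, 22440 bp and 39160 bp in these 34 members, the other 61 and the other symbols. Of the 10 loci found in both Mtr4-null groups and in no WT group, 4 lay within 1000 bp of a start, namely Mir484, Mir1894, Mir1956 and Mir707. No test was run on these shares.

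**Figure D4:**
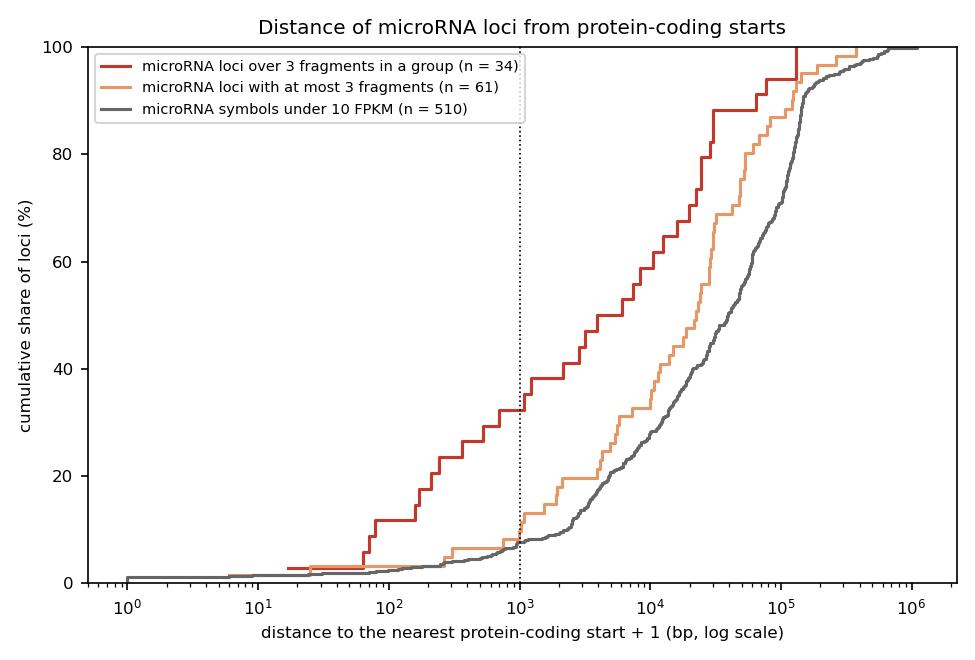
Cumulative share of loci (%) against the distance to the nearest protein-coding start in bp (log axis; dotted line at 1000 bp) for the 34 microRNA loci with over 3 fragments in a group, the 61 with at most 3 and the 510 symbols under 10 FPKM. At 1000 bp the curves stand at 32.4%, 9.84% and 7.65%.

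Loci near a start did not all lean to Mtr4-null oocytes. Mir320, 63 bp upstream of the polymerase III subunit gene Polr3d on the opposite strand, held 4 fragments in Mtr4-null day 14, 1, 0 and 3 by library, and none elsewhere. Mir762, 77 bp after the start of Bcl7c on the other strand, held more fragments in WT day 21 than in any other group. Mir5133, 16 bp after the start of Glce, held 4 fragments in WT day 14 alone, 3, 1 and 0 by library. Mir1199 held 5 and 1 fragments at day 14 and 2 and 3 at day 21 in Mtr4-null and WT oocytes.

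The genes that make and use microRNAs were read from a fixed list, of which 36 were found and 20 reached 10 FPKM in some group. At day 14 1 of the 36 was at least 2-fold higher in Mtr4-null oocytes and 0 were lower, with a median log2 difference of 0.091. The one was Srrt, whose protein links the cap-binding complex to Drosha, at 16.8 FPKM in Mtr4-null and 4.98 FPKM in WT oocytes. At day 21, 7 of the 36 were higher and 6 of the 36 lower, the median being -0.053. Over the 7462 symbols at 10 FPKM, 9.26% were higher and 1.74% lower at day 14, and 19.4% and 29.5% at day 21. Only 20 of the 36 genes reached 10 FPKM, so the sets are unlike and nothing is read from these counts. Of the cropping genes, Drosha was at 3.66 and 12.7 FPKM at day 21 while Dgcr8 was at 12.3 and 5.43 FPKM. Xpo5, the exporter of cropped hairpins, was at 2.26 and 11.3 FPKM, and Lin28a, which binds let-7 precursors, at 2.19 and 8.67 FPKM. Ncbp1, the large cap-binding subunit, was at 16.9 and 4.23 FPKM. Dicer1 stood at 53.8 and 35.0 FPKM at day 14 and at 22.4 and 32.8 FPKM at day 21, under 2-fold at both ages. These levels rest on long transcripts, but each is still 1 mean per group with no replicate error.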

How the data were processed

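Poly(A) RNA of Mtr4-null and WT oocytes at day 14 and day 21 was profiled in 12 labelled libraries. The authors deposited FPKM values, 1 mean per group, with Cufflinks 2.2.1, TopHat2 2.1.1 and build mm9 named in the submitters' processing notes. The total depth of each library is unknown. Contrasts are differences of log2(FPKM + 1), which understate the fold of low values, and are counted at 1 or more; no test is possible on 1 mean per group, and the limma fit planned for separate libraries was not used. Fragment numbers were recovered from values that recurred at 3 or more loci, by a procedure checked on simulated data. The simulation scored the total over libraries and not the split between them. Its 2 simulated libraries also differed more in the worth of 1 fragment than those of Mtr4-null day 21. The work was done in Python 3.11.15 with pandas 2.3.3, numpy 2.4.6 and scipy 1.17.1 (figures with matplotlib 3.10.9). Of the shortest fragment lengths tried, 48 nt gave 142 recurring values. Counting intervals are exact Poisson intervals at 95%, on numbers rounded to whole fragments. Effective lengths could not be had for 2 members, Mir1940 and Mir3096b. Hosts and starts came from GENCODE vM21 and names from RefSeq, both on GRCm38, so no coordinates are printed. The members and gene lists were chosen with earlier results of these data known. Named were the highest members, the largest differences in each contrast, members at 10 FPKM in both WT groups, members with a host at 10 FPKM, clusters, the edges of the rule and the biogenesis list, with other members where a count needed them; members chosen only for a neighbouring row at 10 FPKM are in the counts and not all named.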

Additional observations from a re-analysis of the deposited data

How the results depend on the processing

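The counts of microRNA loci at least 2-fold higher or lower were 52 and 18 at day 14, and at day 21 they were 34 and 15. Pairs with locus and host both higher numbered 3 at day 14, then 6 at day 21. Of the alternatives tried, 34 results stayed within 1.5 times the main count and 12 did not. A minimum of 100 FPKM left 26 higher and 9 lower at day 14, and 1 pair with its host at day 14, since fewer loci are then counted. A further setting, chosen after seeing the data, asked for over 3 fragments in the higher genotype. The level of the other genotype was raised to the worth of 3 fragments wherever it stood below that, so it could hold 0. This setting left 6 higher and 1 lower at day 14, and 13 higher and 1 lower at day 21. Pairs with the host then numbered 0 at day 14 and 3 at day 21. A pseudocount of 0.1 gave 7 pairs at day 14, and one of 10 gave 1 pair at day 14 and 2 at day 21. No paired analysis was possible because the table holds 1 mean per group, and leaving out single replicates was not run for the same reason. Depth limits most members: 61 of 95 held at most about 3 fragments in every group.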
